A study of Mus musculus with 12 samples.

Results

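Transcripts of matrix metalloproteases, ADAMs, ADAMTSs and their inhibitors, the TIMPs, were measured in cells sorted as E-cadherin+ epithelium from embryonic mouse submandibular salivary glands. All genes whose symbol was Mmp, Adam or Adamts with a number (and, for the Mmp and Adam genes, at most 1 further letter) or Timp1 to Timp4 were taken from the count table. The match was by symbol alone, and this family was chosen with earlier results of these data known. This gave 79 of 43280 genes, of which 23 were Mmp, 33 Adam, 19 Adamts and 4 Timp genes. The glands were from embryonic day 15 embryos of the strain Tg(KRT5-Venus)1Sgkd, in which the fluorescent protein Venus reports activity of the KRT5 (keratin 5) promoter. By the labels, all cells were E-cadherin+ and were separated by flow cytometry on the receptor Kit and on Venus. The 4 groups were Kit+ K5+ and Kit+ K5- cells, then Kit- K5+ and last Kit- K5- cells, with 3 libraries each, 12 in all. K5+ and K5- thus stand for the Venus reporter and not for keratin 5 protein, and every group carries the transgene. How many embryos or litters went into a library, and whether libraries share a sort, are points the labels leave out, so p-values measure only the spread between these libraries.

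Matrix metalloproteases cut collagens, laminins and other matrix proteins, and most are secreted as inactive precursors or, in the membrane-type members, held at the cell surface. ADAMs are membrane proteins, and those with an active catalytic site shed the outer parts of growth factors and receptors such as EGF family ligands and Notch. ADAMTSs are secreted, and act on hyalectan proteoglycans, on procollagens and on fibrillin microfibrils. TIMPs block these enzymes by binding in the catalytic cleft. In the branching submandibular gland, remodelling of the basement membrane and of collagen around the end buds goes along with cleft formation and bud outgrowth.

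Levels are given as CPM, counts scaled to the TMM-adjusted library total, and a difference as log2 of the ratio of 2 groups with its standard error from edgeR's quasi-likelihood test. A gene was called at a Benjamini-Hochberg adjusted p under 0.05 over the 17030 genes that passed the filter on low counts. Library totals ran between 5589037 and 13724364 counts, the share of mitochondrial genes between 5.59% and 30.9%, and each library had counts for 55 to 77 of the 79 genes. Kit had 335, 303 and 319 CPM for Kit+ K5+ libraries and 445, 299.5 and 283 CPM for Kit+ K5- libraries, against 15.3, 26.4 and 25.6 CPM for Kit- K5+ and 10.03, 20.4 and 13.7 CPM for Kit- K5- libraries. Krt5 had 1.57, 9.93 and 4.26 CPM for Kit+ K5+ and 0.317, 4.63 and 2.33 CPM for Kit+ K5- libraries. In Kit- cells Krt5 had 22.9, 13.5 and 20.3 CPM for K5+ and 0.853, 4.597 and 7.15 CPM for K5- libraries. The K5+ and K5- libraries thus overlapped for Krt5 within Kit+ cells and were apart within Kit- cells. The difference of Krt5 between Kit- K5+ and Kit- K5- cells was log2 2.18 ± 0.85, adjusted p = 0.0964, and log2 2.77 ± 0.72, adjusted p = 0.0142 with the runs of library numbers as a block.

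The Kit- K5- libraries stood apart from the rest in cell type markers and went against their E-cadherin+ label, with high mesenchyme and low epithelial markers, so that Kit- K5- below names the sort and not an epithelial cell type. Cdh1, which encodes E-cadherin, had 1111, 758 and 530.2 CPM for Kit+ K5+ and 909, 702 and 503 CPM for Kit+ K5- libraries. In Kit- cells Cdh1 had 657, 575 and 529.7 CPM for K5+ and 172, 149 and 198 CPM for K5- libraries. The summed level of 16 mesenchyme markers was 558 to 834 CPM for Kit+ K5+, 406 to 675 CPM for Kit+ K5-, 724 to 911 CPM for Kit- K5+ and 11512 to 19534 CPM for Kit- K5- libraries, and none of the 16 was at 0 in all 3 libraries of any group. Of these 16, 14 were called lower in Kit+ K5- cells than in Kit- K5- cells, where 11.1% of all genes were. In Kit- K5+ cells 12 were called lower than in Kit- K5- cells, where 9.1% of all genes were. The first of them, Col1a1, ran at 33.9 to 106 CPM for Kit+ K5+, 19.6 to 119 CPM for Kit+ K5-, 50.3 to 66.4 CPM for Kit- K5+ and 1453 to 3136 CPM for Kit- K5- libraries. In summed level, 20 general epithelial genes had 1800 to 3432 CPM for Kit+ K5+, 1758 to 2908 CPM for Kit+ K5-, 1675 to 1850 CPM for Kit- K5+ and 484 to 633 CPM for Kit- K5- libraries. Summed leukocyte and macrophage markers (13 genes) had 51.2 to 61.3, 91.6 to 542, 55.3 to 71.3 and 220.1 to 1326 CPM in the 4 groups in that order, with C1qa at 0 in all Kit+ K5+ libraries. Mast cell markers (8 genes) had 3.75 to 46.9 CPM for Kit+ K5+, 128 to 4959 CPM for Kit+ K5-, 2.75 to 11.6 CPM for Kit- K5+ and 19.2 to 46.6 CPM for Kit- K5- libraries, the highest in replicate 1 of Kit+ K5-. Summed erythroid markers (7 genes) had 12.02 to 19.0, 11.4 to 22.1, 11.95 to 25.6 and 92.4 to 780 CPM in the 4 groups, neuronal markers (10 genes) 4.15 to 6.17, 7.58 to 13.9, 3.57 to 14.2 and 76.9 to 184 CPM, and endothelial markers (8 genes) 8.21 to 21.4, 8.53 to 21.9, 10.9 to 25.4 and 48.8 to 59.3 CPM. Schwann and glial markers (10 genes) had 388 to 424, 379 to 435, 199.5 to 359 and 111 to 226 CPM, and skeletal muscle markers (7 genes) 12.7 to 17.7, 17.5 to 42.0, 32.0 to 71.0 and 36.4 to 74.3 CPM. Mitochondrial genes took 17.8 to 30.9% of counts for Kit+ K5+, 10.96 to 27.3% for Kit+ K5-, 24.2 to 30.6% for Kit- K5+ and 5.59 to 12.2% for Kit- K5- libraries, so that no Kit- K5- library overlapped a Kit- K5+ library. The part of such other cells and of this share in the differences of the Kit- K5- group below was not tested.

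Of the 79 genes, 52 passed the filter, which asked for about 10 counts (1.11 CPM) in 3 libraries, the size of a group: 12 Mmp, 19 Adam, 18 Adamts and 3 Timp genes. Of these 52, 6 had all 3 libraries over that level in a single group alone. They were Adam1a, Adam30, Mmp9 and Timp1 in Kit- K5-, Adam4 in Kit- K5+ and Adamts8 in Kit+ K5- cells. The filter counted libraries of any group, and Adam1a, Adam30, Timp1 and Adam4 also reached the level in at least 3 libraries of other groups. Mmp9 and Adamts8 did not, so their differences are partly set by the filter. The 27 genes that did not pass were Adam2, Adam3, Adam6a, Adam6b, Adam7, Adam18, Adam20, Adam24, Adam25, Adam26a, Adam26b, Adam29, Adam34, Adam39, Adamts13, Mmp1a, Mmp1b, Mmp3, Mmp7, Mmp8, Mmp10, Mmp20, Mmp24, Mmp25, Mmp27, Mmp28 and Timp4. Most of the Adam genes among them are known from testis, where their proteins act in sperm maturation and fertilisation.

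Many of the genes with few counts lay together in the genome. On chromosome 9 of GRCm38, in GENCODE M21 positions, chr9:7272514-7699585 held 10 members within 427 kb: Mmp13, Mmp12, Mmp1b, Mmp3, Mmp1a, Mmp10, Mmp8, Mmp27, Mmp20 and Mmp7, which include collagenases, stromelysins, matrilysin and the macrophage and enamel metalloproteases. All 10 together had 395 counts over the 12 libraries, and Mmp13 (collagenase-3) had the highest mean of them, 0.817 CPM. Only Mmp12 and Mmp13 of the 10 passed the filter, neither was called, and Mmp8 (neutrophil collagenase) had 113 of the 395 counts. Mmp1a is annotated as a polymorphic pseudogene. On chromosome 8, the 4 genes Adam24, Adam25, Adam20 and Adam39 at chr8:40675077-40827037 had 28 counts in all, and Adam26b, Adam26a and Adam34 at chr8:43519762-43710049 had 25. Another group, Adam18, Adam3, Adam5, Adam32 and Adam9 at chr8:24602246-25016927, differed in that Adam9 had a mean of 32.1 CPM beside neighbours with few counts.

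The 250 bases before the RefSeq start of the genes (RefSeq table of GRCm38.p6) show how the promoters of the chromosome 9 genes and of the members with many counts differ in sequence. Shown are Mmp13 and Mmp3 from the chromosome 9 group, and Adam19 and Mmp14 as membrane proteases with high levels in Kit- K5- cells. Timp2 is shown as the inhibitor that was called in 3 pairwise comparisons. Adamts18 is the one member whose 3 Kit- K5+ libraries all lay above the other 9. Capitals mark matches on either strand to TGANTCA (the AP-1 site), GGGCGG (the GC box, CCGCCC on the other strand) and TATAAA (the TATA box), and no match of 1 motif overlapped a match of another in these 6 sequences. Each sequence is read 5′ to 3′ on the strand of the gene.
Mmp13: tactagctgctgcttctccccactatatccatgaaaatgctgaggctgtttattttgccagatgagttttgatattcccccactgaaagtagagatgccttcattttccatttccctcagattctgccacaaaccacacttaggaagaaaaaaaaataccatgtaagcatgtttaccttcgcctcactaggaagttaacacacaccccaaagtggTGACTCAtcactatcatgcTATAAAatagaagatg
Mmp3: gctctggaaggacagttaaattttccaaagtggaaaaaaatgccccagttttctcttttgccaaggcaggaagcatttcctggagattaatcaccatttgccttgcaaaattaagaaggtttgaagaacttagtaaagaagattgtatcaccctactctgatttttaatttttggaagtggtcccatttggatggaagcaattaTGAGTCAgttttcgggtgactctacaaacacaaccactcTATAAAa
Adam19: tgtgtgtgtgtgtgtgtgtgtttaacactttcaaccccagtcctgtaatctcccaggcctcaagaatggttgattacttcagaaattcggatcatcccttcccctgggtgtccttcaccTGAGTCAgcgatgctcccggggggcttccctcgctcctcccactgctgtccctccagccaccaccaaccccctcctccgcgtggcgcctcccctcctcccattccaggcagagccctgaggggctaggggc
Mmp14: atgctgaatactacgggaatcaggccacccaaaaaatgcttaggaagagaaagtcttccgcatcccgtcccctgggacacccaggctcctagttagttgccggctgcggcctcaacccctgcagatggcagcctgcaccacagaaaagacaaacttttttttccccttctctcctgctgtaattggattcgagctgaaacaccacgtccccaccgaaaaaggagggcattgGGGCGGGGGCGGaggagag
Timp2: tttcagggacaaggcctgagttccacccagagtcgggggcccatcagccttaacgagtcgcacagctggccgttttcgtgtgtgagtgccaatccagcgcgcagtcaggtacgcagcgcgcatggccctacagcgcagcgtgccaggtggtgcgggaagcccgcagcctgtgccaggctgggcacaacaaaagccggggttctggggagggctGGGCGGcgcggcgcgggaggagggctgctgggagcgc
Adamts18: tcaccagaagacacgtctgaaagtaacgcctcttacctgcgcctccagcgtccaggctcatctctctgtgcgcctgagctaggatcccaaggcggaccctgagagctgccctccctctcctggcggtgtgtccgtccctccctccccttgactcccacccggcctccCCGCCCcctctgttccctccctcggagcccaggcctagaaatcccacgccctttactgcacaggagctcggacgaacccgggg
The sequences lie at chr9:7272264-7272513 on the plus strand (Mmp13), chr9:7445572-7445821 plus (Mmp3), chr11:46055734-46055983 plus (Adam19, 1 of 3 starts in the table and the one with a match), chr14:54431348-54431597 plus (Mmp14), chr11:118355412-118355661 minus (Timp2) and chr8:113848840-113849089 minus (Adamts18). Mmp13 has an AP-1 match at -35 and a TATA match at -16, and Mmp3 at -46 and -7, counted to the first base of the match from the annotated start, while Adam19 has an AP-1 match at -131. Mmp14 has 2 adjoining GC boxes, the first at -19, Timp2 has 1 at -37 and Adamts18 has 1 at -83.

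The table held promoters of 49 members. AP-1 letters were found before 8 of the 10 chromosome 9 genes, before 1 of 27 other members that passed the filter (Adam19), and before 3 of 12 other members that did not, against 7.82% of all 27025 genes in the table. TATA letters were found before 7 of the 10, 2 of the 27 and 3 of the 12, against 14.3% of all genes. GC boxes were found before 0 of the 10, 17 of the 27 and 3 of the 12, against 35.4% of all genes. The AP-1 letters of Mmp20, Adam20 and Adam25 were TGAATCA, which is not the AP-1 site. The share of such matches over all genes was not counted. These are matches of letters in a window of fixed length, given as a description.

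**Figure D1:**
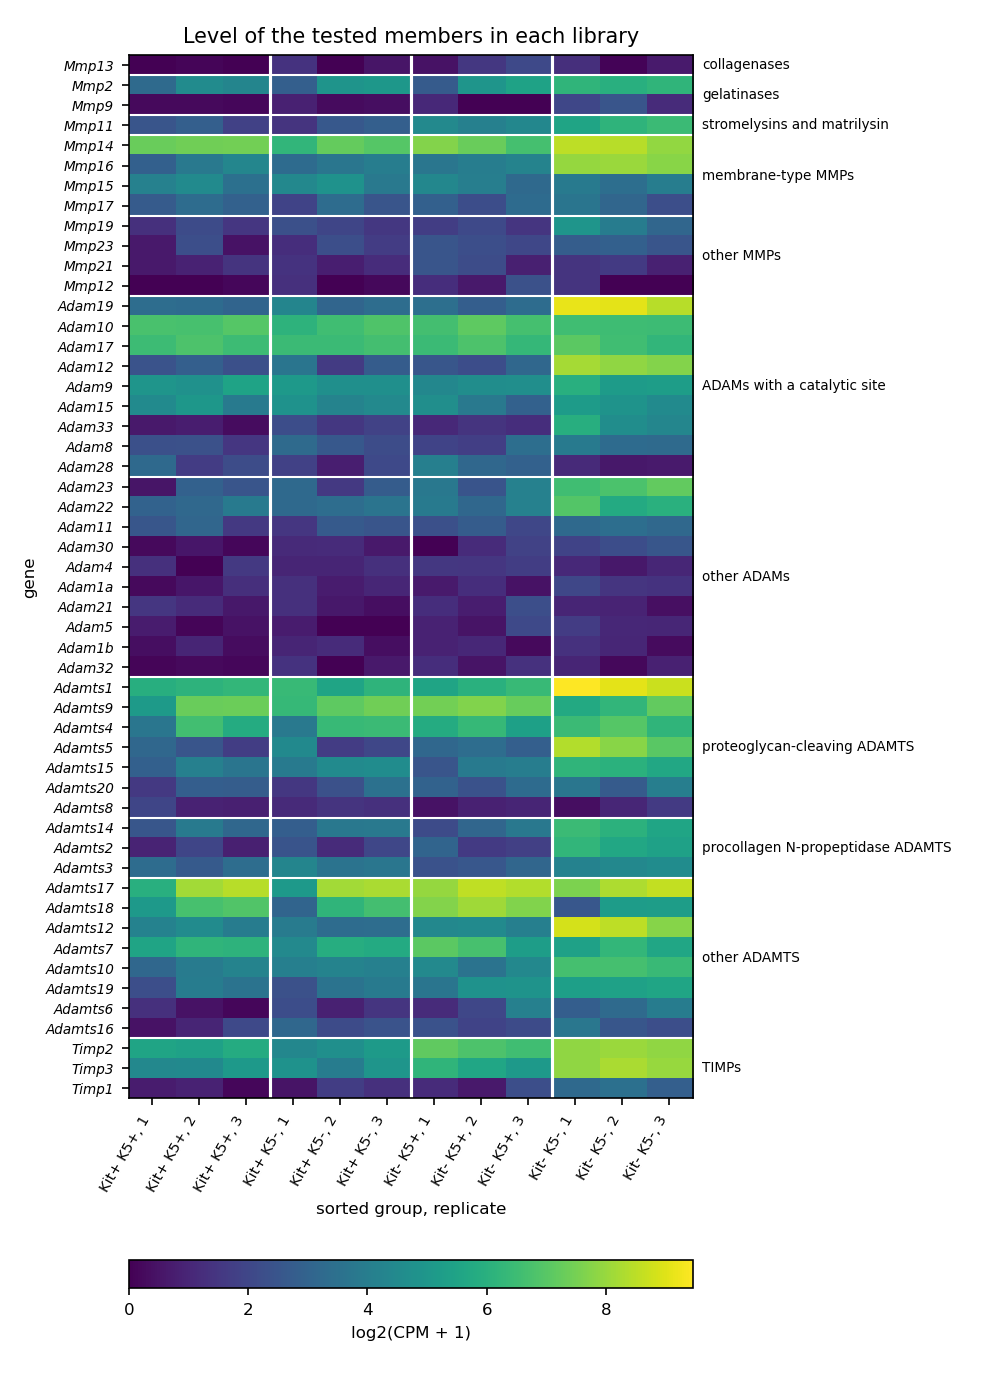
Level of the 52 members that passed the filter, as log2(CPM + 1) in colour, with 1 row per gene ordered by role and 1 column per library, in the order Kit+ K5+, Kit+ K5-, then Kit- K5+ and last Kit- K5-. In the 3 columns on the right (Kit- K5-), 26 of the 52 rows are higher than in all of the other 9 columns.

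All 3 Kit- K5- libraries lay above the other 9 for 26 of the 52 members that passed the filter, where 12% of all 17030 genes did so. Of these 26, 4 (Adam1a, Adam30, Mmp9 and Timp1) had all 3 libraries over the filter level in Kit- K5- cells alone, and 22 did not. Of these 4, Mmp9 would not have passed without the Kit- K5- libraries, so its place was partly set by the filter. The Kit- K5- libraries lay below the other 9 for 0 members, where 7.65% of all genes did. The summed level of all 79 genes was 871 to 1550 CPM for Kit+ K5+, 823 to 1471 CPM for Kit+ K5-, 1637 to 1950 CPM for Kit- K5+ and 3944 to 5059 CPM for Kit- K5- libraries. Adamts18 alone had all 3 Kit- K5+ libraries above the other 9 (2.04% of all genes), and Adam9 alone had them below (1.52%). All 3 Kit+ K5+ libraries lay above the other 9 for 0 members (1.09% of all genes) and below for 1, Adam33 (1.09%). All 3 Kit+ K5- libraries lay above for 0 members (0.699%) and below for 2, Adamts12 and Timp2 (0.763%). In bulk RNA, more cells of a type and more RNA per cell cannot be told apart.

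Between Kit- K5+ and Kit- K5- cells, edgeR called 22 of the 52 members, 2 higher (Adam28 and Adamts18) and 20 lower in Kit- K5+ cells, where 16.5% of all genes tested were called, 7.38% higher and 9.1% lower. The median log2 difference of the 52 was -1.02, against 0.04 over all genes tested. Between Kit+ K5- and Kit- K5- cells, 20 members were called, all lower in Kit+ K5- cells, where 21.3% of all genes were called, 10.2% higher and 11.1% lower, and the median was -1.17, against 0.05 over all genes. Both comparisons use the same Kit- K5- libraries. With the runs as a block, 27 members and 23.8% of all genes were called in Kit- K5+ against Kit- K5- cells, and 21 members and 29.2% of all genes in Kit+ K5- against Kit- K5- cells.

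Between Kit+ K5+ and Kit- K5+ cells, 1 member was called (Timp2, lower), where 0.658% of all genes were called, and the median log2 difference was -0.57, against -0.05 over all genes. Between Kit+ K5+ and Kit+ K5- cells edgeR called 0 members and 0% of all genes, with 6 members and 1161 genes of all 17030 at an unadjusted p under 0.05. By DESeq2 the count over all genes was 119, by limma-voom 0 and by edgeR with the block 54. The interaction, the K5 difference in Kit+ cells minus that in Kit- cells, was called for 12 members, all positive, where 4.02% of all genes were called, 2.81% positive and 1.21% negative. The test of any difference over the 4 groups called 24 members, where 25.7% of all genes were called. With the block that test called 27 members and 36.8% of all genes, the interaction 17 members and 8.33%, Kit+ K5+ against Kit- K5+ cells 2 members and 4.63%, and Kit+ K5+ against Kit+ K5- cells 0 members and 0.317%.

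**Figure D2:**
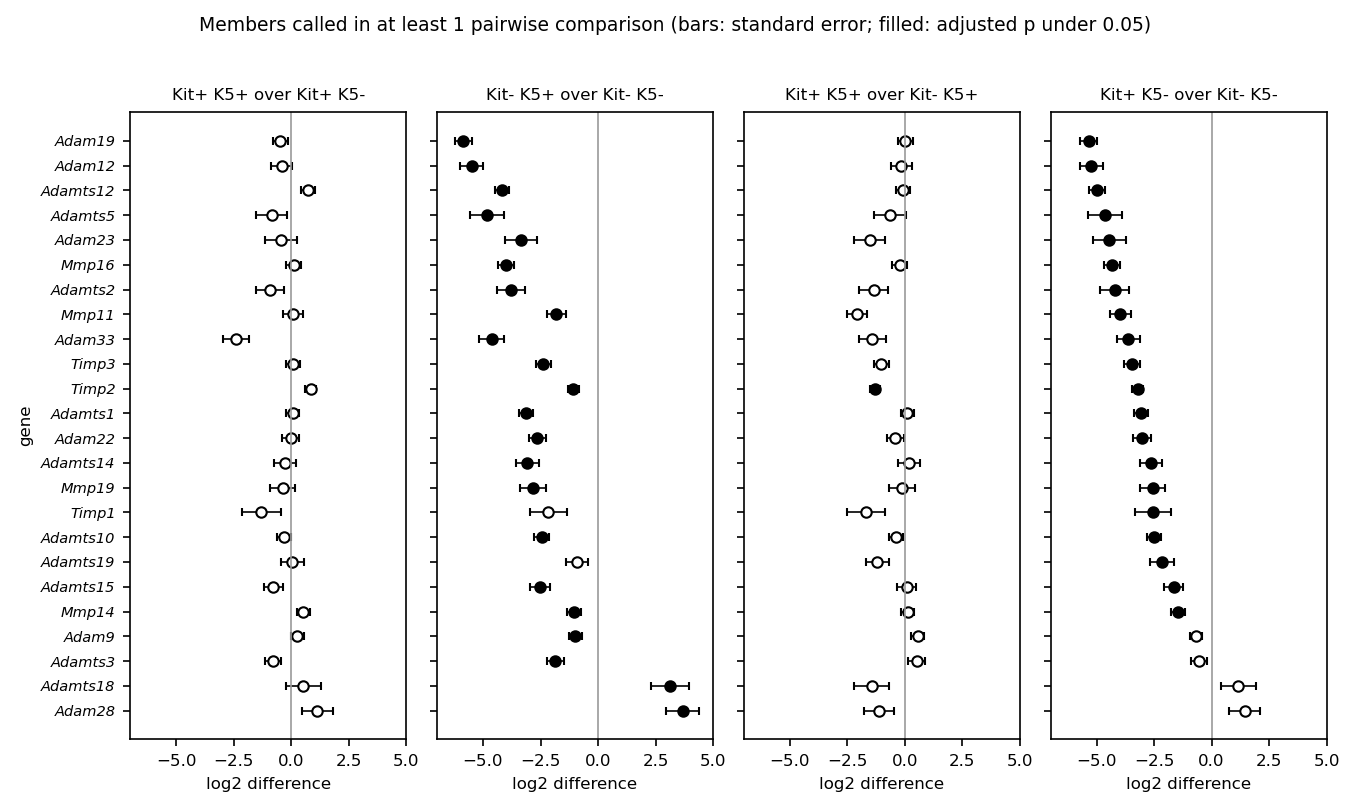
Log2 difference with its standard error in the 4 pairwise comparisons, for the 24 members called in at least 1 of them; filled points have an adjusted p under 0.05 by edgeR. Filled points number 0, 22, 1 and 20 from left to right, and in the panels with 22 and 20 most lie to the left of 0, on the side of a lower level than in Kit- K5- cells.

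Among the inhibitors, Timp2 and Timp3 were lower in both Kit- K5+ and Kit+ K5- cells than in Kit- K5- cells. Timp2, which inhibits most MMPs and also links MMP14 to pro-MMP2, had 45.3, 41.7 and 54.9 CPM for Kit+ K5+ and 19.7, 25.3 and 34.2 CPM for Kit+ K5- libraries. In Kit- cells Timp2 had 142, 113 and 93.0 CPM for K5+ and 236, 262 and 233 CPM for K5- libraries. The 4 groups did not overlap, with Kit+ K5- lowest, then Kit+ K5+, Kit- K5+ and Kit- K5-. Timp2 was lower in Kit+ K5+ cells than in Kit- K5+ cells (log2 -1.29 ± 0.23, adjusted p = 0.0363), the only member called in that comparison. That call was lost on leaving out any of 6 single libraries, with adjusted p between 0.0569 and 0.138. It was lower in Kit+ K5- cells than in Kit- K5- cells by 9.25-fold (log2 -3.21 ± 0.25, adjusted p = 1.99e-06), and lower in Kit- K5+ cells than in Kit- K5- cells by 2.10-fold (log2 -1.07 ± 0.23, adjusted p = 0.00628). Within Kit+ cells the difference was log2 0.84 ± 0.23, adjusted p = 0.359, higher in Kit+ K5+ cells in 3 of 3 runs, and the K5 differences within Kit+ and within Kit- cells differed (interaction log2 1.92 ± 0.32, adjusted p = 0.0043).

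Timp3, a matrix-bound TIMP that also blocks ADAM17 and the aggrecanases, had 20.3, 21.7 and 33.3 CPM for Kit+ K5+ and 27.5, 14.6 and 29.7 CPM for Kit+ K5- libraries. In Kit- cells Timp3 had 71.0, 47.9 and 32.5 CPM for K5+ and 235, 302 and 253 CPM for K5- libraries. Both Kit+ groups overlapped each other, and the lowest Kit- K5+ library lay below the highest Kit+ K5+ library. It was lower in Kit- K5+ cells than in Kit- K5- cells (log2 -2.38 ± 0.33, adjusted p = 0.000294), likewise in Kit+ K5- cells than in Kit- K5- cells (log2 -3.46 ± 0.34, adjusted p = 1.45e-05). Its difference between Kit+ K5+ and Kit- K5+ cells was log2 -1.01 ± 0.32, adjusted p = 0.127. Of 21 alternatives, 2 called that difference, DESeq2 (adjusted p = 0.0417) and edgeR with a filter of 1 count in any library (0.0217). Exons of Timp3 overlap those of Syn3, and the strand setting of the counting is not given. Timp1, a soluble TIMP, had 0.646, 0.868 and 0.129 CPM for Kit+ K5+ and 0.423, 2.32 and 1.46 CPM for Kit+ K5- libraries. In Kit- cells Timp1 had 1.25, 0.550 and 3.83 CPM for K5+ and 8.33, 10.1 and 6.23 CPM for K5- libraries. Timp1 had all 3 libraries over the filter level of 1.11 CPM in Kit- K5- cells alone. It also reached that level in single libraries of Kit+ K5- and Kit- K5+ cells, with few counts. Its call, lower in Kit+ K5- cells than in Kit- K5- cells (log2 -2.55 ± 0.80, adjusted p = 0.0367), was lost on leaving out any 1 library of the 2 groups, with adjusted p between 0.0529 and 0.116. In Kit- K5+ against Kit- K5- cells the main test did not call Timp1, and 5 of 21 alternatives did. Among these were DESeq2 (log2 -2.16 ± 0.79, adjusted p = 0.0308) and limma-voom (log2 -2.59 ± 0.70, adjusted p = 0.0194). Timp4 had 22 counts over the 12 libraries and was not tested.

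**Figure D3:**
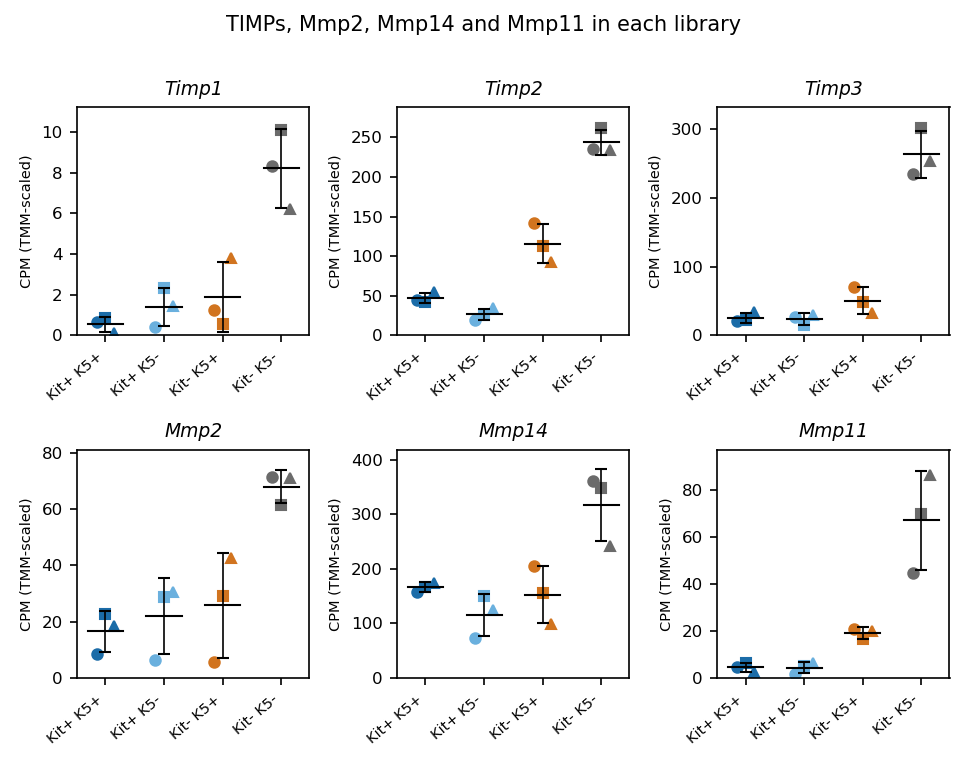
CPM of Timp1, Timp2, Timp3, Mmp2, Mmp14 and Mmp11 in each library; points are libraries (circle, square and triangle for replicates 1, 2 and 3), lines are group means and bars the SD. For all 6 genes the 3 Kit- K5- libraries lie above the other 9, and for Timp2 and Mmp11 the Kit- K5+ libraries lie between them and both Kit+ groups.

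Of the membrane-type MMPs, Mmp14 and Mmp16 were lower in Kit- K5+ and Kit+ K5- than in Kit- K5- cells, and Mmp15 and Mmp17 were called in no comparison with TMM scaling. Mmp14 encodes MT1-MMP, a membrane-anchored collagenase that activates pro-MMP2. It had 158, 167 and 175 CPM for Kit+ K5+ and 73.7, 149.8 and 124 CPM for Kit+ K5- libraries. In Kit- cells Mmp14 had 204, 155 and 99.3 CPM for K5+ and 361, 348 and 242 CPM for K5- libraries. Its lowest library thus had 73.7 CPM, and its difference was log2 -1.05 ± 0.29, adjusted p = 0.0249 in Kit- K5+ against Kit- K5- cells and log2 -1.45 ± 0.29, adjusted p = 0.0033 in Kit+ K5- against Kit- K5- cells. The first of these calls was lost on leaving out any of 4 single Kit- libraries, with adjusted p between 0.0669 and 0.0918. Mmp16 (MT3-MMP) had 6.55 to 19.0 CPM in the other 9 libraries, 246, 258 and 219 CPM in the Kit- K5- libraries, and differences of log2 -4.01 ± 0.35, adjusted p = 8.45e-06 (Kit- K5+ against Kit- K5-) and log2 -4.33 ± 0.35, adjusted p = 3.08e-06 (Kit+ K5- against Kit- K5-). Mmp15 (MT2-MMP), known in the submandibular gland for releasing fragments of collagen IV, had 10.3 to 22.0 CPM for Kit+ K5+, 13.3 to 27.1 CPM for Kit+ K5-, 8.42 to 19.9 CPM for Kit- K5+ and 9.73 to 15.1 CPM for Kit- K5- libraries. All 4 groups of Mmp15 overlapped. Its log2 difference in Kit+ K5- against Kit- K5- cells was 0.66 ± 0.39 (adjusted p = 0.258), and it changed sign with libraries scaled to 20 general epithelial genes (-1.51 ± 0.49, adjusted p = 0.00903). Mmp17 had 2.75 to 11.67 CPM over the 12 libraries.

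Of the secreted MMPs, Mmp11 and Mmp19 were called, and others, among them Mmp2, Mmp9 and Mmp13, only with the block or other settings. Mmp2 (gelatinase A) had 8.58, 22.6 and 18.6 CPM for Kit+ K5+ and 6.34, 28.9 and 30.7 CPM for Kit+ K5- libraries. In Kit- cells Mmp2 had 5.63, 29.3 and 42.7 CPM for K5+ and 71.6, 61.4 and 71.2 CPM for K5- libraries. Replicate 1 was the lowest library in each of the first 3 groups, and all Kit- K5- libraries were above all others. Mmp2 missed the threshold (log2 -1.41 ± 0.62, adjusted p = 0.142 in Kit- K5+ against Kit- K5- cells, log2 -1.63 ± 0.62, adjusted p = 0.0788 in Kit+ K5- against Kit- K5- cells) and was called with the runs as a block (log2 -1.85 ± 0.47, adjusted p = 0.0119 in Kit- K5+, and log2 -2.03 ± 0.46, adjusted p = 0.00539 in Kit+ K5-, each against Kit- K5- cells). Mmp9 (gelatinase B) had 0 to 1.125 CPM in the other 9 libraries and 3.08, 4.597 and 1.23 CPM for Kit- K5- libraries, with log2 -2.86 ± 1.19, adjusted p = 0.12 in Kit- K5+ against Kit- K5- cells and log2 -3.42 ± 1.17, adjusted p = 0.0499 with the block.

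Mmp11 (stromelysin-3), which furin activates inside the cell, had 4.61, 6.36 and 2.58 CPM for Kit+ K5+ and 1.69, 5.06 and 6.26 CPM for Kit+ K5- libraries. In Kit- cells Mmp11 had 21.0, 16.3 and 19.9 CPM for K5+ and 44.8, 69.9 and 86.5 CPM for K5- libraries. Both Kit+ groups overlapped, all Kit- K5+ libraries were above them and all Kit- K5- libraries higher still. Its difference was log2 -1.81 ± 0.42, adjusted p = 0.0101 in Kit- K5+ against Kit- K5- cells and log2 -3.96 ± 0.47, adjusted p = 5.96e-05 in Kit+ K5- against Kit- K5- cells. In Kit+ K5+ against Kit- K5+ cells it was log2 -2.06 ± 0.44, adjusted p = 0.0501, just over the threshold, and log2 -2.08 ± 0.41, adjusted p = 0.0177 with the block. Exons of Mmp11 overlap those of Chchd10. Mmp19 had 1.48 to 3.91 CPM in the other 9 libraries and 29.7, 14.8 and 7.76 CPM for Kit- K5- libraries (log2 -2.83 ± 0.57, adjusted p = 0.0047 in Kit- K5+, and log2 -2.57 ± 0.56, adjusted p = 0.00552 in Kit+ K5-, each against Kit- K5- cells). Of the collagenases only Mmp13 was tested, with 82 counts in all and none in replicates 1 and 3 of Kit+ K5+ and replicate 2 of Kit+ K5-.

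Of 9 ADAMs taken as active proteases outside the testis, all of them tested, 1 was higher (Adam28) and 4 lower (Adam9, Adam12, Adam19 and Adam33) in Kit- K5+ cells than in Kit- K5- cells, and 3 were lower (Adam12, Adam19 and Adam33) in Kit+ K5- cells than in Kit- K5- cells. Of all genes, 7.38% were called higher and 9.1% lower in the first comparison, and 10.2% higher and 11.1% lower in the second. Adam10 and Adam17, the main sheddases of Notch and of EGF family ligands, had 68.0 to 138 CPM and 74.4 to 135 CPM over the 12 libraries, and no comparison called either with TMM scaling. For Adam10 the log2 differences were 0.28 ± 0.21 (Kit+ K5+ against Kit+ K5-), 0.30 ± 0.21 (Kit- K5+ against Kit- K5-), -0.01 ± 0.21 (Kit+ K5+ against Kit- K5+) and 0.01 ± 0.21 (Kit+ K5- against Kit- K5-). For Adam17, whose exons overlap those of Iah1, they ran between -0.17 ± 0.23 and 0.10 ± 0.23. With libraries scaled to the 20 epithelial genes, which moved the median of all genes by -2.13 in Kit+ K5- against Kit- K5- cells, Adam10 was lower there (log2 -2.02 ± 0.49, adjusted p = 0.00118), as was Adam17 (log2 -2.25 ± 0.47, adjusted p = 0.000337). In Kit- K5+ against Kit- K5- cells, where that scaling moved the median by -1.34, Adam17 was called too (log2 -1.47 ± 0.46, adjusted p = 0.0140).

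Adam19 and Adam12, the meltrins beta and alpha, had the widest differences among the members called. Adam19 had 9.41, 8.87 and 7.24 CPM for Kit+ K5+ and 18.7, 7.58 and 9.32 CPM for Kit+ K5- libraries. In Kit- cells Adam19 had 9.88, 6.04 and 9.18 CPM for K5+ and 566, 534 and 349.8 CPM for K5- libraries. It was 57.8-fold lower in Kit- K5+ cells than in Kit- K5- cells (log2 -5.85 ± 0.38, adjusted p = 1.81e-06). It was also 40.6-fold lower in Kit+ K5- cells than in Kit- K5- cells (log2 -5.34 ± 0.36, adjusted p = 1.32e-06). Among the other 9 libraries, the highest value was replicate 1 of Kit+ K5-, the library with the highest sum of mast cell markers, whose part in this value was not tested, and K5+ and K5- libraries of Kit+ cells overlapped (log2 -0.48 ± 0.32, adjusted p = 0.811). Adam12 had 4.34, 6.27 and 4.01 CPM for Kit+ K5+ and 11.73, 2.11 and 5.68 CPM for Kit+ K5- libraries. In Kit- cells Adam12 had 4.75, 3.71 and 8.03 CPM for K5+ and 288, 237 and 206 CPM for K5- libraries, with log2 -5.49 ± 0.51, adjusted p = 1.25e-05 in Kit- K5+ and log2 -5.22 ± 0.50, adjusted p = 1.06e-05 in Kit+ K5- cells, each against Kit- K5- cells. Exons of Adam19 overlap those of 2 predicted genes.

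Adam33, also highest in Kit- K5- cells, had 0.553, 0.675 and 0.258 CPM for Kit+ K5+ and 3.70, 1.90 and 2.62 CPM for Kit+ K5- libraries. In Kit- cells Adam33 had 1.125, 1.65 and 1.34 CPM for K5+ and 59.1, 23.7 and 19.4 CPM for K5- libraries. It was lower in Kit- K5+ cells than in Kit- K5- cells (log2 -4.62 ± 0.54, adjusted p = 8.71e-05), likewise in Kit+ K5- cells than in Kit- K5- cells (log2 -3.63 ± 0.50, adjusted p = 0.000229). All Kit+ K5+ libraries of Adam33 lay below all Kit+ K5- libraries (log2 -2.40 ± 0.55, adjusted p = 0.264 by edgeR, adjusted p = 0.0240 by DESeq2). Adam9 was lower in Kit- K5+ cells (19.6 to 24.7 CPM) than in Kit- K5- cells (35.8 to 60.9 CPM, log2 -0.98 ± 0.28, adjusted p = 0.0295), and had 26.3 to 44.2 CPM for Kit+ K5+ and 24.9 to 33.2 CPM for Kit+ K5- libraries. That call was lost with upper-quartile scaling (adjusted p = 0.0514) and on leaving out any of 4 single Kit- libraries, with adjusted p between 0.0516 and 0.158. Adam15 was called in Kit- K5+ against Kit- K5- cells with the block (log2 -1.04 ± 0.33, adjusted p = 0.0351) and not without it (log2 -0.94 ± 0.42, adjusted p = 0.145). With TMM scaling Adam8 was called in no comparison.

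Adam28, a sheddase known from lymphocytes and epididymis, ran the other way. It had 8.30, 2.22 and 3.62 CPM for Kit+ K5+ and 2.54, 0.737 and 3.20 CPM for Kit+ K5- libraries. In Kit- cells Adam28 had 16.1, 7.83 and 6.70 CPM for K5+ and 1.18, 0.536 and 0.613 CPM for K5- libraries. It was 12.8-fold higher in Kit- K5+ cells than in Kit- K5- cells (log2 3.68 ± 0.72, adjusted p = 0.00368), with no overlap of these 2 groups, while the Kit- K5+ and Kit+ K5+ libraries overlapped. Within Kit+ cells the difference had the same sign (log2 1.14 ± 0.66, adjusted p = 0.771) and was not called.

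Among the other ADAMs, Adam22 and Adam23, which lack a working catalytic site and act as receptors for LGI proteins in neurons, were called. Adam22 had 6.83 to 17.0 CPM in the other 9 libraries and 120.3, 54.2 and 63.1 CPM for Kit- K5- libraries (log2 -2.63 ± 0.39, adjusted p = 0.000522 in Kit- K5+, and log2 -3.02 ± 0.39, adjusted p = 0.000136 in Kit+ K5-, each against Kit- K5- cells). Adam23 had 0.461 to 17.0 CPM in the other 9 and 91.9, 109.7 and 146 CPM for Kit- K5- libraries (log2 -3.35 ± 0.69, adjusted p = 0.00498 and log2 -4.44 ± 0.72, adjusted p = 0.000803 in the same comparisons). Of cell type markers known from nerves, 6 of 9 tested neuronal markers were lower in Kit- K5+ cells than in Kit- K5- cells. Of 10 Schwann and glial markers, 2 were higher and 2 lower there. In Kit+ K5- against Kit- K5- cells, 6 of the 9 were lower, and of the 10, 1 was higher and 0 lower. Of all genes, 7.38% were called higher and 9.1% lower in the first comparison, and 10.2% and 11.1% in the second. The part of these markers in the differences of Adam22 and Adam23 was not tested.

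**Figure D4:**
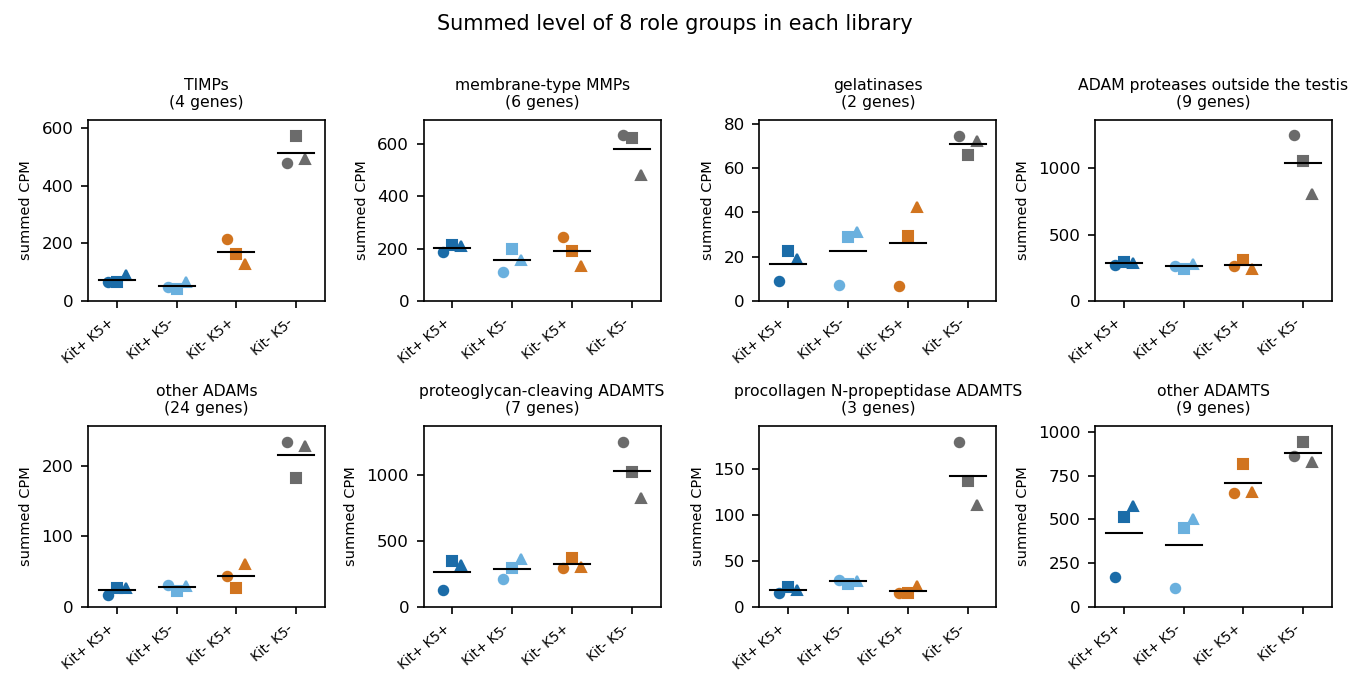
Summed CPM of 8 of the 11 role groups in each library, with circle, square and triangle for replicates 1, 2 and 3 and a line for the mean. The 3 Kit- K5- libraries are the highest in all 8 panels, by a narrow margin for the other ADAMTSs, where the Kit- K5+ libraries sum to 650.0 to 818 CPM and the Kit- K5- libraries to 828 to 943 CPM. The collagenases, whose Kit- K5- libraries overlapped the other groups, the stromelysins and the other MMPs are not plotted.

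Of the ADAMTSs that cleave versican and related proteoglycans, Adamts1, Adamts5 and Adamts15 were lower in Kit- K5+ and Kit+ K5- than in Kit- K5- cells, and Adamts4, Adamts8, Adamts9 and Adamts20 were not called. Where 2 differences are given below with no further word, the first is Kit- K5+ and the second Kit+ K5-, each against Kit- K5- cells. Adamts1 had 59.5, 67.9 and 76.4 CPM for Kit+ K5+ and 81.0, 44.9 and 69.9 CPM for Kit+ K5- libraries. In Kit- cells Adamts1 had 44.5, 63.5 and 81.3 CPM for K5+ and 700.4, 539 and 412 CPM for K5- libraries. The first 3 groups overlapped, and the differences from Kit- K5- cells were log2 -3.13 ± 0.29, adjusted p = 1.33e-05 for Kit- K5+ and log2 -3.08 ± 0.29, adjusted p = 1.06e-05 for Kit+ K5- cells. Adamts5 had 2.21 to 21.7 CPM in the other 9 and 326, 218 and 129.6 CPM for Kit- K5- libraries (log2 -4.81 ± 0.74, adjusted p = 0.000766, and log2 -4.63 ± 0.73, adjusted p = 0.000641). Adamts15 had 4.63 to 23.4 CPM in the other 9 and 72.5, 64.4 and 50.1 CPM for Kit- K5- libraries (log2 -2.51 ± 0.43, adjusted p = 0.00164, and log2 -1.65 ± 0.41, adjusted p = 0.0118).

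Adamts9 had 34.9, 154 and 161 CPM for Kit+ K5+ and 80.6, 138 and 168 CPM for Kit+ K5- libraries. In Kit- cells Adamts9 had 174, 201 and 154 CPM for K5+ and 53.1, 74.2 and 143 CPM for K5- libraries. Kit- K5+ libraries were all above the Kit- K5- libraries, and the difference was log2 0.97 ± 0.48, adjusted p = 0.188 without and log2 1.15 ± 0.35, adjusted p = 0.0316 with the block, and adjusted p = 0.00671 with a filter of 1 count in any library. Adamts4 had 11.99, 95.9 and 55.8 CPM for Kit+ K5+ and 13.1, 81.0 and 85.9 CPM for Kit+ K5- libraries, against 54.6, 79.0 and 40.4 CPM for Kit- K5+ and 86.3, 124 and 71.1 CPM for Kit- K5- libraries. Replicate 1 was the lowest Kit+ library of both genes in each Kit+ group.

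All 3 procollagen N-propeptidases, Adamts2, Adamts3 and Adamts14, were called. These enzymes remove the amino-terminal propeptide of fibrillar procollagens, and Adamts3 also activates VEGFC. Adamts14 had 3.50 to 13.7 CPM in the other 9 and 87.0, 66.1 and 46.1 CPM for Kit- K5- libraries (log2 -3.08 ± 0.50, adjusted p = 0.00115 in Kit- K5+, and log2 -2.63 ± 0.49, adjusted p = 0.00196 in Kit+ K5-, each against Kit- K5- cells). Adamts2 had 0.775 to 7.25 and 74.4, 50.0 and 41.1 CPM there (log2 -3.79 ± 0.61, adjusted p = 0.00105, and log2 -4.22 ± 0.62, adjusted p = 0.000381). Adamts3 had 9.22, 5.399 and 9.43 CPM for Kit+ K5+ and 18.6, 11.2 and 12.1 CPM for Kit+ K5- libraries. In Kit- cells Adamts3 had 4.25, 4.95 and 7.65 CPM for K5+ and 17.4, 20.1 and 23.4 CPM for K5- libraries. Its call was that of Kit- K5+ against Kit- K5- cells (log2 -1.86 ± 0.37, adjusted p = 0.00409), and its Kit+ K5- and Kit- K5- libraries overlapped (log2 -0.54 ± 0.35, adjusted p = 0.309).

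Adamts12, a protease of cartilage oligomeric matrix protein, had 17.4, 22.7 and 14.7 CPM for Kit+ K5+ and 14.4, 9.16 and 9.47 CPM for Kit+ K5- libraries. In Kit- cells Adamts12 had 20.1, 21.8 and 15.9 CPM for K5+ and 461, 366 and 214 CPM for K5- libraries. All Kit+ K5- libraries lay below all others. The differences from Kit- K5- cells were log2 -4.17 ± 0.32, adjusted p = 3.42e-06 for Kit- K5+ and log2 -4.98 ± 0.33, adjusted p = 1.32e-06 for Kit+ K5- cells. Adamts10, which binds fibrillin, had 8.02 to 20.9 CPM in the other 9 and 102, 100.7 and 83.1 CPM for Kit- K5- libraries (log2 -2.45 ± 0.31, adjusted p = 0.000175, and log2 -2.51 ± 0.31, adjusted p = 9.55e-05). Adamts19 was lower in Kit+ K5- (4.12 to 13.4 CPM) than in Kit- K5- cells (39.1 to 46.0 CPM, log2 -2.15 ± 0.51, adjusted p = 0.00856), with 11.9 to 27.9 CPM for Kit- K5+ libraries (log2 -0.91 ± 0.49, adjusted p = 0.223, and log2 -1.08 ± 0.32, adjusted p = 0.0283 with the block).

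Adamts18, which is needed for normal branching of the mouse lung, was the one member whose 3 Kit- K5+ libraries all lay above the other 9. It had 32.5, 103 and 117 CPM for Kit+ K5+ and 7.19, 71.1 and 98.5 CPM for Kit+ K5- libraries. In Kit- cells Adamts18 had 206, 276 and 204 CPM for K5+ and 4.85, 36.9 and 37.2 CPM for K5- libraries. Replicate 1 was the lowest library in 3 of the 4 groups. It was 8.74-fold higher in Kit- K5+ cells than in Kit- K5- cells (log2 3.13 ± 0.82, adjusted p = 0.0196). The difference between Kit+ K5+ and Kit- K5+ cells was log2 -1.44 ± 0.77, adjusted p = 0.337. The call was lost without replicate 1 of Kit- K5- (adjusted p = 0.0590), without replicate 2 of Kit- K5+ (0.0524) and with libraries scaled to general epithelial genes (log2 1.75, adjusted p = 0.0787).

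Adamts17, a fibrillin-microfibril protease, was the member with the most counts, 28539, and was not called. It had 62.0, 285 and 347 CPM for Kit+ K5+ and 32.9, 280.5 and 305 CPM for Kit+ K5- libraries. In Kit- cells Adamts17 had 249.6, 373 and 329 CPM for K5+ and 193, 309 and 382 CPM for K5- libraries. Replicate 1 was the lowest library of each group, by the widest step in the Kit+ groups. Adamts7 had 20.9 to 133 CPM over the 12 libraries and was not called, and Adamts6 and Adamts16 had at most 16.5 and 12.5 CPM. The edgeR test of any difference over the 4 groups called Adamts6, while its pairwise tests did not. DESeq2 called Adamts6 for Kit+ K5+ against Kit- K5+ cells (log2 -3.39 ± 0.94, adjusted p = 0.0118). It did so too for Kit+ K5- against Kit- K5- cells (log2 -2.25 ± 0.89, adjusted p = 0.0447). With the runs as a block, edgeR called neither difference (adjusted p = 0.0938 and 0.0672).

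**Figure D5:**
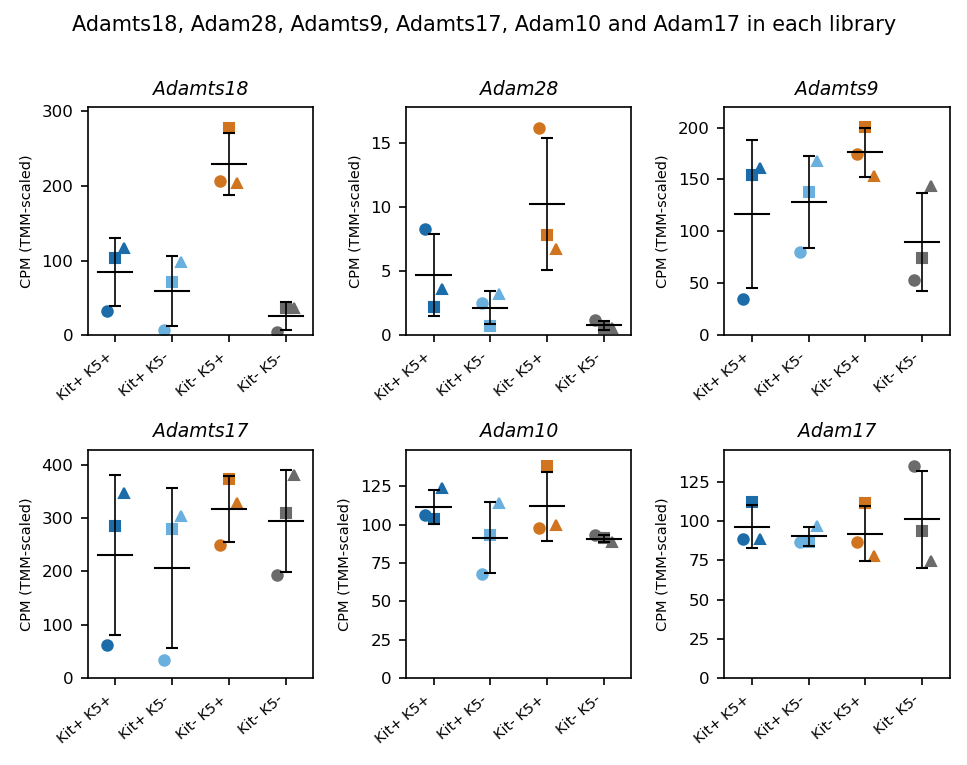
CPM of Adamts18, Adam28, Adamts9, Adamts17, Adam10 and Adam17 in each library; points are libraries (circle, square and triangle for replicates 1, 2 and 3), lines are means and bars the SD. Adamts18 is highest in the 3 Kit- K5+ libraries, Adam10 and Adam17 stay between 68.0 and 138 CPM, and the circles of Adamts17 and Adamts9 are lowest in the Kit+ groups.

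Compared per kb of annotated exon, the order of the members differed between groups. Adamts17 had rank 1 in Kit+ K5+ cells (29.8 ± 19.3 CPM per kb, SD, n = 3), in Kit+ K5- cells (26.6 ± 19.4) and in Kit- K5+ cells (40.9 ± 8.07), and had rank 5 in Kit- K5- cells (38.0 ± 12.3). Adamts1 had rank 1 in Kit- K5- cells with 103.8 ± 27.3 CPM per kb, against 12.8 ± 1.59 for Kit+ K5+, 12.3 ± 3.49 for Kit+ K5- and 11.9 ± 3.47 for Kit- K5+ cells. The wide SD of Adamts17 in both Kit+ groups came with the low replicate 1, so its rank above Mmp14 (28.0 ± 1.41 CPM per kb in Kit+ K5+ cells) was not beyond the spread.

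Other genes that activate, restrain or work beside these proteases were read from lists. Their counts stand beside the 16.5% of all genes called in Kit- K5+ and the 21.3% called in Kit+ K5-, each against Kit- K5- cells. Against Kit- K5- cells, the median log2 difference of a list, first for Kit- K5+ and then for Kit+ K5- cells, was -0.32 and 0.19 for activators and membrane regulators, -2.04 and -2.49 for plasminogen activators and serpins, and 1.64 and 2.18 for membrane serine proteases and Kunitz inhibitors. They were -2.15 and -4.46 for astacin proteases and enhancers, -0.79 and -0.62 for cathepsins and cystatins and -0.99 and -1.17 for ADAMTS-like genes and hyalectans, against 0.04 and 0.05 over all genes tested. Of 14 tested activators and membrane regulators, 28.6% and 35.7% were called in these comparisons: 2 were higher and 2 lower in Kit- K5+ cells than in Kit- K5- cells, and 2 higher and 3 lower in Kit+ K5- cells than in Kit- K5- cells. Reck, a membrane-anchored inhibitor of MMPs, had 6.72 to 16.5 CPM in the other 9 and 187, 173 and 127 CPM for Kit- K5- libraries (log2 -3.70 ± 0.28, adjusted p = 3.27e-06, and log2 -4.04 ± 0.28, adjusted p = 1.32e-06). Pcsk6, a proprotein convertase, had 42.2 to 119 CPM in the other 9 and 12.1, 19.2 and 14.4 CPM for Kit- K5- libraries (log2 2.45 ± 0.35, adjusted p = 0.000378, and log2 2.25 ± 0.34, adjusted p = 0.000494). Of the tetraspanins that escort ADAM10, Tspan14 was higher (log2 1.19 ± 0.21, adjusted p = 0.0021, and log2 1.19 ± 0.21, adjusted p = 0.00145) and Tspan5 lower (log2 -1.38 ± 0.29, adjusted p = 0.00631, and log2 -1.15 ± 0.29, adjusted p = 0.0122) than in Kit- K5- cells in these comparisons. With libraries scaled to epithelial genes the difference of Tspan14 changed sign in both (log2 -0.16, adjusted p = 0.758, and log2 -0.92, adjusted p = 0.0616), and Pcsk6 was no longer called (log2 1.09, adjusted p = 0.0933, and log2 0.21, adjusted p = 0.717).

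Of 9 tested plasminogen activators and serpins, 1 was higher and 5 lower in Kit- K5+ cells than in Kit- K5- cells, and 0 higher and 4 lower in Kit+ K5- cells than in Kit- K5- cells. Serpinb5 (maspin) was the higher one, with 7.27 to 17.6 CPM for Kit- K5+ against 0.393 to 1.33 CPM for Kit- K5- libraries (log2 3.55 ± 0.58, adjusted p = 0.0011). Plat (tissue plasminogen activator) had 10.1 to 42.5 CPM for Kit- K5+ and 9.30 to 29.7 CPM for Kit+ K5- libraries, against 102 to 119 CPM for Kit- K5- libraries (log2 -2.06 ± 0.50, adjusted p = 0.0134, and log2 -2.49 ± 0.51, adjusted p = 0.00377).

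The membrane serine proteases and their Kunitz inhibitors went the other way, with 4 of 8 higher and 0 lower in Kit- K5+ cells than in Kit- K5- cells, and 6 higher and 0 lower in Kit+ K5- cells than in Kit- K5- cells. St14 (matriptase) had 44.4 to 54.8 CPM for Kit- K5+ and 76.2 to 113 CPM for Kit+ K5- libraries, against 14.2 to 20.6 CPM for Kit- K5- libraries (log2 1.63 ± 0.26, adjusted p = 0.00109, and log2 2.57 ± 0.27, adjusted p = 2.55e-05). Its inhibitor Spint2 had 50.5 to 77.9 CPM for Kit- K5+ and 65.1 to 108 CPM for Kit+ K5- libraries, against 9.25 to 17.2 CPM for Kit- K5- libraries (log2 2.32 ± 0.31, adjusted p = 0.000266, and log2 2.66 ± 0.32, adjusted p = 6.42e-05). Spint1 and Spint2 are also among the 20 epithelial genes above, so scaling to those genes partly sets their own differences in advance. With libraries scaled to those genes, St14 (log2 0.27, adjusted p = 0.584, and log2 0.39, adjusted p = 0.387) and Spint2 (log2 0.96, adjusted p = 0.0621, and log2 0.49, adjusted p = 0.286) were not called, and Spint1 (both comparisons), Hpn and Tmprss2 (Kit+ K5- against Kit- K5- cells) changed sign.

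Of 3 tested astacin proteases and enhancers, 0 were higher and 2 lower in Kit- K5+ cells than in Kit- K5- cells, and 0 higher and 3 lower in Kit+ K5- cells than in Kit- K5- cells. Bmp1, the procollagen C-proteinase, was lower (log2 -1.10 ± 0.22, adjusted p = 0.00461, and log2 -1.98 ± 0.23, adjusted p = 5.48e-05), and so was its enhancer Pcolce (log2 -5.01 ± 0.52, adjusted p = 3.21e-05, and log2 -4.46 ± 0.50, adjusted p = 4.16e-05). Of 10 cathepsins and cystatins 0 were higher and 3 lower in each comparison, among them Ctsk, a collagen-degrading cathepsin (log2 -3.90 ± 0.49, adjusted p = 0.000147, and log2 -4.19 ± 0.49, adjusted p = 5.95e-05). Of 11 ADAMTS-like genes and hyalectans, 1 was higher (Papln, log2 1.35 ± 0.40, adjusted p = 0.0343) and 1 lower (Adamtsl5, log2 -3.43 ± 0.91, adjusted p = 0.0206) in Kit- K5+, and 0 were higher and 2 lower in Kit+ K5-, each against Kit- K5- cells. This is 18.2% of the list in each comparison, near the shares of all genes called (16.5% and 21.3%). None of these lists had a called gene in Kit+ K5+ against Kit+ K5- cells or in Kit+ K5+ against Kit- K5+ cells without the block. With the block, Cst3, St14 and Tll1 were called in Kit+ K5+ against Kit- K5+ cells. It also added Cst3, Pcsk7, Prss8 and Serpinb2 in Kit- K5+ and Cstb, Serpinb2 and Vcan in Kit+ K5-, each against Kit- K5- cells.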

How the data were processed

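Total RNA of 12 libraries was sequenced as single 50 nt reads, per the labels' protocols. The authors deposited whole-number read counts per gene symbol. The aligner was STAR 2.4.2a on GRCm38 and the counter featureCounts, per the labels' protocols. Per the submitters' processing notes, the build was GRCm38.p3, the featureCounts version 1.4.6-p3, and Picard 1.129 and FastQC were also used. Neither the annotation release nor the strand setting is given in the sources used here. The matrix of the series and the single tables differed in 0 cells.

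The tests used edgeR 4.0.16 in R 4.3.3, with filterByExpr, TMM scaling, and a quasi-likelihood fit of all 12 libraries with 1 coefficient per group and 8 residual degrees of freedom (common biological coefficient of variation 0.437). Pairwise differences, their interaction and any difference among the 4 groups were tested, with Benjamini-Hochberg adjustment over 17030 genes at 0.05. The members and lists were chosen with earlier results of these data known. Named were all TIMPs, the members past 0.05 in each role group (failing any, the 2 with the highest mean), up to 4 past 0.05 in each pathway list, of which part is written out, and marker genes. Other members are named for a level or a missed call, chosen after their values were seen. Positions are from GENCODE M21, promoters from RefSeq. The fit was tested on simulated data. Alternatives used DESeq2 1.42.0, limma-voom from limma 3.58.1, other scaling and filters, the compared groups alone, a block, and leaving out each library.

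Each of the runs of library numbers 1 to 4, 5 to 8 and 9 to 12 holds every group. In the 4 pairwise comparisons, libraries of a run deviated together, with correlations of their deviations from the group means between 0.108 and 0.408. The run was therefore taken as a pairing in the fit with a block, from the data and not from the labels. The main tests did not use this pairing, and blocked values are given beside them where they change a call. Over all 18 pairs within runs the lowest correlation was 0.0928.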

Additional observations from a re-analysis of the deposited data

Results flagged for a closer look

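The K5 difference within Kit+ cells (Kit+ K5+ over Kit+ K5-) differed from that within Kit- cells (Kit- K5+ over Kit- K5-) for 12 members, by edgeR's test of the interaction with Benjamini-Hochberg adjustment. Each value is the first log2 difference minus the second, and all 12 were positive. Among the ADAMs, the interaction was log2 5.08 ± 0.66, adjusted p = 0.000509 for Adam12, log2 5.37 ± 0.47, adjusted p = 3.02e-05 for Adam19 and log2 2.60 ± 0.53, adjusted p = 0.0137 for Adam22. It was log2 1.58 ± 0.41, adjusted p = 0.0462 for Mmp14 and log2 4.11 ± 0.46, adjusted p = 0.000175 for Mmp16, the membrane-type MMPs. Among the ADAMTSs it was log2 3.18 ± 0.40, adjusted p = 0.000357 for Adamts1, log2 3.96 ± 0.97, adjusted p = 0.0363 for Adamts5, log2 2.13 ± 0.43, adjusted p = 0.0127 for Adamts10, log2 4.90 ± 0.43, adjusted p = 2.99e-05 for Adamts12 and log2 2.80 ± 0.68, adjusted p = 0.0344 for Adamts14. For the inhibitors it was log2 1.92 ± 0.32, adjusted p = 0.0043 for Timp2 and log2 2.45 ± 0.45, adjusted p = 0.00748 for Timp3. Beside these values, 11 of 16 mesenchyme markers had a positive and 5 of 20 general epithelial genes a negative interaction past the threshold. Of all genes tested, 2.81% had a positive and 1.21% a negative one. The part of these markers in the 12 was not tested. Of 20 alternatives, 10 lost the call of Mmp14, 9 that of Adamts5 and 7 that of Adamts14.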

How the results depend on the processing

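Each result was recomputed with DESeq2's size factors, upper-quartile factors or factors from 20 general epithelial genes, with DESeq2, limma-voom, looser filters, the compared groups alone or a replicate block on the runs, and without each library in turn. No direction of a called member reversed. Of the members called, 19 of 22 (Kit- K5+ against Kit- K5-), 19 of 20 (Kit+ K5- against Kit- K5-), 0 of 1 (Kit+ K5+ against Kit- K5+) and 9 of 12 (interaction) were called under every setting. Scaling to epithelial genes gave 37 members in Kit- K5+ against Kit- K5- cells, 43 in Kit+ K5- against Kit- K5- cells, 4 in Kit+ K5+ against Kit- K5+ cells, 23 for the interaction and 46 for any difference. Of all 17030 genes tested, that scaling called 8016, 12505, 579, 4031 and 12486 in the same order. It moved the median log2 of all genes by -1.34, -2.13, -0.59 and 1.53 in the first 4 of these, and by 0.18 in Kit+ K5+ against Kit+ K5- cells. Upper-quartile factors moved it by 0.11 in Kit- K5+ against Kit- K5- cells, where 1587 genes were then higher and 1329 lower, against 1256 and 1550 with TMM. In Kit+ K5+ against Kit- K5+ cells, DESeq2's size factors and upper-quartile factors gave 2 members, DESeq2 5, a filter of 1 count in any library 8 and the block 2, in place of 1. In Kit+ K5+ against Kit+ K5- cells, DESeq2 and that filter gave 1 (Adam33), in place of 0. Without single libraries, members called ranged between 0 and 0 (Kit+ K5+ against Kit+ K5-), 19 and 23 (Kit- K5+ against Kit- K5-), 0 and 2 (Kit+ K5+ against Kit- K5+), 19 and 21 (Kit+ K5- against Kit- K5-), 9 and 13 (interaction) and 21 and 26 (any difference).

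Over all genes, the counts were 0, 2806, 112, 3624, 684 and 4384 for the 4 pairwise comparisons (in the order of the ranges above), the interaction and any difference. Epithelial scaling gave 47, 8016, 579, 12505, 4031 and 12486. In Kit+ K5+ against Kit+ K5- cells the filter of 1 count gave 318, DESeq2 119 and the block 54. In Kit+ K5+ against Kit- K5+ cells it gave 1212, DESeq2 1039, the block 788, limma-voom 58 and the compared groups alone 72, and for the interaction the filter gave 1960, DESeq2 1411 and the block 1418. Without single libraries these counts ranged between 0 and 4, 1362 and 3157, 4 and 240, 2123 and 3754, 370 and 729, and 2655 and 4689. The block gave 17 members for the interaction, with Adam28 (log2 -2.66, adjusted p = 0.0433), Adamts15, Adamts18 (log2 -2.96, adjusted p = 0.0230), Adamts2 and Mmp19 added, and 27 members for any difference, with Adam9, Mmp2 and Mmp9 added. In the pairwise comparisons it changed no other call of a member than those given with the results. Genes of the pathway lists that it added for the interaction included Plat, Prss8 and Tspan5. The causes of these changes were not tested. Timp1, Mmp9, Mmp12 and Mmp13 had few counts, which limits their precision.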
